A study of Mus musculus with 6 samples.

Results

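The 10 genes described are those of the primary, or azurophil, granule proteins of neutrophils and of the early granulocyte genes measured with them, namely Mpo, Elane, Prtn3, Ctsg, Ms4a3, Hp, Nkg7, Cst7, Srgn and Calr. They were taken by symbol, and all 10 were found among the 23420 genes of the table. RNA was sequenced from LSK cells of mouse bone marrow, a sort for cells without lineage antigens and with Sca-1 and c-Kit, where stem cells and multipotent progenitors are found. There were 3 mice labelled bcat(ex3)osb, called mutant mice here, in which osteoblasts carry constitutively active β-catenin, and 3 wild-type (WT) littermates, with 1 library a mouse. The genetic change is in the bone-forming cell and not in the sorted blood cells. The labels give no Cre driver, strain, age or treatment.

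Neutrophils are made from progenitors that pass through a promyelocyte stage, and it is at that stage that the primary granules are filled. The granules hold myeloperoxidase, which makes hypochlorous acid, and the serine proteases neutrophil elastase, proteinase 3 and cathepsin G, all stored as ready enzyme on a proteoglycan matrix. The genes are transcribed early and in a short window, before those of the secondary granules, and PU.1, C/EBPα, RUNX1 and MYB are known regulators of several of them. The label of primary granule proteins does not cover all 10: Calr encodes calreticulin, a chaperone of the endoplasmic reticulum, Hp encodes haptoglobin, kept in later granules, and Nkg7 and Cst7 are also genes of cytotoxic lymphocytes.

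The start regions of the peroxidase gene and of the 3 serine protease genes are shown because their transcripts carry most of the signal described here, and each holds the letters GAGGAA, a core bound by PU.1. The 250 bases before each start site were read from a RefSeq promoter table on GRCm38.p6, 5′ to 3′ on the gene's own strand, with GAGGAA in capitals.
Mpo (chr11:87793534-87793783, plus strand): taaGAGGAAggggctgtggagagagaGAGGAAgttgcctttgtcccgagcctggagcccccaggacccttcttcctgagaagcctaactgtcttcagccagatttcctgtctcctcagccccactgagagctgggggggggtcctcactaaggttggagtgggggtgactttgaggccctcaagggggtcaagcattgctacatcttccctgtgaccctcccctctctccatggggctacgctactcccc
Elane (chr10:79886062-79886311, plus strand): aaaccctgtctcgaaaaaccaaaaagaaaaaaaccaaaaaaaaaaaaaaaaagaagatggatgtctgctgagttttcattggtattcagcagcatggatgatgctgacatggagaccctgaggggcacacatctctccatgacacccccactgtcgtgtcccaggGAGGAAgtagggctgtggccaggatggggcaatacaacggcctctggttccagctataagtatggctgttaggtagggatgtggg
Prtn3 (chr10:79879417-79879666, plus strand): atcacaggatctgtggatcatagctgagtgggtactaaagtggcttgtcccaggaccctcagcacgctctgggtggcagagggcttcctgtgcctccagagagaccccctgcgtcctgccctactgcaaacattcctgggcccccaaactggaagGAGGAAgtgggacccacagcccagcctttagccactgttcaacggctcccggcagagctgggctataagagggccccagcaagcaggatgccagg
Ctsg (chr14:56102575-56102824, minus strand): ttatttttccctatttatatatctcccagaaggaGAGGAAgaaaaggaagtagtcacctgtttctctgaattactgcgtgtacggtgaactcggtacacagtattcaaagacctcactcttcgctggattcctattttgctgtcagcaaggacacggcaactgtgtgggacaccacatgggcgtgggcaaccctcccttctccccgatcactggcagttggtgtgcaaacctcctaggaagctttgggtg
In windows that also take in the 50 bases after the start, GAGGAA on either strand was present in 28.3% of all 32851 promoters of the table. Of the 10 genes, 9 had an entry there (all but Hp). Mpo had the letters at positions -247 and -224 from the start, Elane at -85, Prtn3 at -95 and Ctsg at -216, and Ms4a3 had them at 36, after the start. The windows of Nkg7, Cst7, Srgn and Calr had no match. A match of letters describes the sequence only.

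The libraries held 15431235 to 19956774 counts each. The 10 genes took 1.01%, 1.29% and 0.821% of all counts for mutants 1, 2 and 3, against 0.25%, 0.486% and 0.48% for WT 1, 2 and 3. Every mutant library thus gave the genes a larger share than every WT library, and Mpo alone made up 0.617%, 0.583% and 0.466% against 0.11%, 0.225% and 0.268%. The lowest count of any of the 10 genes in a library was 94 (Ms4a3 in WT mouse 1; exact Poisson 95% interval 76.0 to 115), and all 10 passed the filter on low counts. Mutant mouse 2 stood apart on the first principal component (50.8% of the variance), and by sex-linked counts mutant mice 1 and 2 were male while the other 4 mice were female. Sorted cells were measured in bulk, so more cells of a kind and more RNA per cell cannot be told apart. The tests measure the spread between these mice, 1 library each.

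Levels are given as CPM, a count scaled to the library total after TMM, and differences as log2 fold changes, mutant over WT, with their standard errors. All 10 genes had a positive log2 fold change, as did 50.3% of the 12653 genes tested. The median over the 10 was 1.72, against 0.00 over all genes tested. In 8 of the 10, every mutant mouse lay above every WT mouse, as in 6.89% of all genes tested. Wholly below WT lay 0 of the 10, and 7.67% of all genes. edgeR's quasi-likelihood test, adjusted over all genes, called 0 of the 10, and its background was 0% of all genes. At an unadjusted p under 0.05, 8 of the 10 were higher and 0 were lower, against 3.43% and 3.13% of all genes. DESeq2, another count test, called 6 of the 10 higher (Mpo, Elane, Prtn3, Ctsg, Ms4a3 and Hp) and 0 lower. Its background was 0.799% of genes higher and 0.538% lower. limma-voom, also run on the counts, called 0 of the 10 and 0 of all genes, higher or lower.

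**Figure D1:**
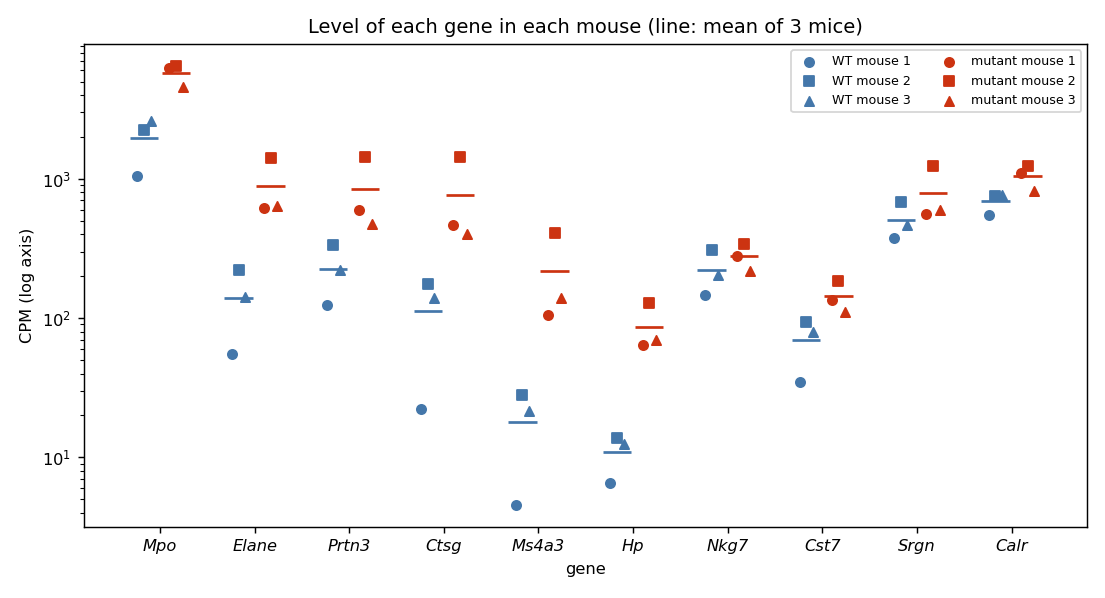
Levels of the 10 genes in each of the 6 libraries (y axis, CPM, log scale), WT and mutant mice apart, with points for mice and lines for group means. Mutant mouse 2 is the highest and WT mouse 1 the lowest for all 10 genes, and the groups overlap for Nkg7 and Srgn.

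Mpo (chr11:87793784-87804412, GRCm38.p6 here and below) encodes myeloperoxidase, a haem enzyme and the most abundant primary granule protein. Its level was 6203, 6471 and 4545 CPM for mutants 1, 2 and 3, against 1040, 2260 and 2597 CPM for the WT in the same order, an order kept below. The lowest mutant mouse was 1.75 times the highest WT mouse. The fitted difference was 1.55 ± 0.34 (SE, n = 3 a group), a 2.92-fold higher mean level, with an edgeR adjusted p of 0.337 and a DESeq2 adjusted p of 0.00279. By FPKM, a count per gene length and library total, Mpo ranked 2, 9 and 6 among all genes in the mutant mice and 83, 64 and 15 in the WT mice. Its exons share 512 of 3424 bases with an antisense gene, Gm11505, and the strand setting of the counting is not given, so reads of the gene pair cannot be told apart there.

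Calr, whose protein helps fold the myeloperoxidase precursor, was measured at 1103, 1244 and 813 CPM in the mutant mice and 552, 756 and 772 CPM in the WT mice. The groups did not overlap but lay close, the lowest mutant mouse at 1.05 times the highest WT mouse. The log2 fold change was 0.60 ± 0.23 (edgeR adjusted p 0.700, DESeq2 adjusted p 0.357). The FPKM ratio of Mpo to Calr was 4.18 ± 0.18 (SD, n = 3) in mutant and 2.10 ± 0.59 in WT mice, without overlap. Of the other glycoprotein folding chaperones, 4 of 8 had a positive value, against 50.3% of all genes. Their median was 0.00, and neither tool called one. Among them P4hb, a protein disulphide isomerase, had 0.36 ± 0.18. Of 8 enzymes that make haem, the cofactor of myeloperoxidase, 3 had an unadjusted p under 0.05, 1 higher and 2 lower, and the median was 0.07. Alas1, the first enzyme of the pathway, was at 276 ± 79.8 CPM in the mutants against 108 ± 18.2 CPM in the WT (log2 fold change 1.36 ± 0.25, DESeq2 adjusted p 0.000335). Uros, a later enzyme, stood at 16.9 ± 2.09 against 27.4 ± 1.79 CPM, and DESeq2 did not call it.

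The serine proteases of the granule, Elane, Prtn3 and Ctsg, lay above WT in every mutant mouse. Elane, neutrophil elastase, the gene most often mutated in congenital neutropenia, was at 615, 1421 and 643 CPM in the mutants, against 54.9, 223 and 142 CPM in the WT. The lowest mutant mouse was 2.76 times the highest WT mouse. Its log2 fold change was 2.67 ± 0.55, 6.38-fold, with an edgeR adjusted p of 0.333 and a DESeq2 adjusted p of 6.47e-05. Prtn3, proteinase 3, a main autoantigen of vasculitis, was at 597, 1447 and 474 CPM in the mutants against 124, 333 and 219.8 CPM in the WT. Here the groups lay nearer, at 1.42 times, and the log2 fold change was 1.89 ± 0.50 (edgeR adjusted p 0.485, DESeq2 adjusted p 0.0104). Of its 1732 exon bases, 159 lie in Plppr3 on the opposite strand. Ctsg (chr14:56099885-56102574), cathepsin G, a protease of chymotrypsin type, was at 465, 1434 and 399 CPM in the mutants against 22.2, 174 and 139 CPM in the WT. Mutant mouse 2 and WT mouse 1 held the extremes, and the log2 fold change was 2.78 ± 0.78 (edgeR adjusted p 0.503, DESeq2 adjusted p 0.00446).

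Elane and Prtn3 are adjacent on chromosome 10, Prtn3 at 79879667 to 79883174 and Elane at 79886312 to 79888216, both on the plus strand with 3137 bases between them (GRCm38.p6). The FPKM ratio of Elane to Prtn3 was 1.09, 1.04 and 1.43 in the mutants, against 0.467, 0.706 and 0.682 in the WT. By CPM, Elane (1421) was below Prtn3 (1447) in mutant mouse 2 as well as in every WT mouse. By the FPKM ratio, Elane was the lower of the pair in every WT mouse and the higher in every mutant mouse. Of 6 such ratios computed, 3 did not overlap between the groups, the other two being Mpo to Calr and Mpo to Elane (2.61 ± 1.00 against 5.71 ± 1.77), and those of Ctsg to Elane, Mpo to Prtn3 and Mpo to Ctsg overlapped. Cfd, 2636 bases after Elane, was at 0 to 0.431 CPM in all libraries. Mcpt8, a basophil protease gene 14385 bases from Ctsg, was at 17.1, 122 and 19.5 CPM in the mutants against 1.26, 17.8 and 10.5 CPM in the WT, which overlapped (log2 fold change 2.42 ± 1.02). Gzme, on the other side of Ctsg, had 0 counts in all 6 libraries. Ctsc, the protease that activates these enzymes, chosen after its values were seen, was at 135 ± 10.003 CPM in the mutants against 151 ± 17.1 CPM in the WT.

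All 5 tested protease inhibitors had a positive value, against 50.3% of all genes, with a median of 0.72. At an unadjusted p under 0.05, 1 was higher, against 3.43% of all genes. That one was Slpi, an inhibitor of elastase and cathepsin G, at 29.8 ± 18.3 CPM in the mutants against 6.83 ± 3.02 CPM in the WT (2.12 ± 0.54, DESeq2 adjusted p 0.00917). Cst3, the widely made cysteine protease inhibitor, stood at 616 ± 89.9 against 374 ± 164 CPM. Without mutant mouse 2 the median of the list was 0.16.

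Ms4a3 (chr19:11629499-11640851), a membrane gene of granulocyte and monocyte progenitors, had the largest log2 fold change of the 10. It was measured at 106, 408 and 138 CPM in the mutants, against 4.56, 28.1 and 21.6 CPM in the WT. The lowest mutant mouse was 3.77 times the highest WT mouse, and the log2 fold change was 3.59 ± 0.76, 12-fold (edgeR adjusted p 0.333, DESeq2 adjusted p 1.30e-05). Hp (chr8:109575128-109579172), haptoglobin, which binds free haemoglobin, was at 63.9, 127 and 69.1 CPM in the mutants, against 6.60, 13.8 and 12.5 CPM in the WT. The gap was the widest of the 10 at 4.64 times, and the log2 fold change was 2.99 ± 0.39, 7.94-fold (edgeR adjusted p 0.292, DESeq2 adjusted p 2.59e-10). Its neighbours Txnl4b and Dhodh had 0.31 ± 0.32 and 0.14 ± 0.25, with overlapping groups.

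**Figure D2:**
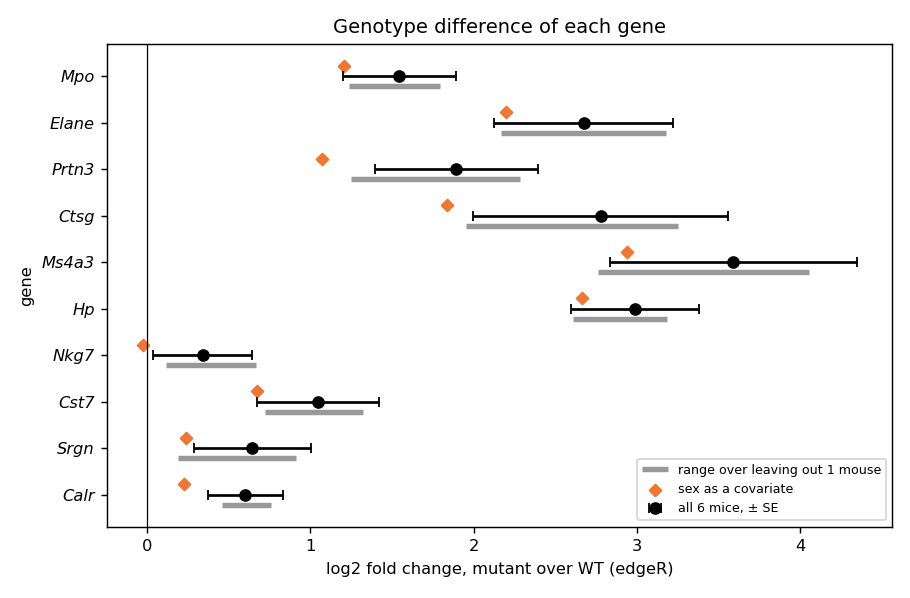
Log2 fold change of each of the 10 genes, mutant over WT (x axis, log2 units), with black points and bars for the estimate and its standard error, grey bars for the range when 1 mouse is left out, and diamonds for the fit with sex as a covariate. Ms4a3 and Hp lie farthest to the right at 3.59 and 2.99, and Nkg7 nearest to 0 at 0.34.

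The granule matrix gene and the genes shared with lymphocytes had smaller log2 fold changes than the peroxidase and the proteases. Srgn, serglycin, the proteoglycan that binds the proteases, was at 559, 1229 and 601 CPM in the mutants against 378, 683 and 467 CPM in the WT. These overlapped, and the log2 fold change was 0.64 ± 0.36. Cst7, cystatin F, an inhibitor of cysteine proteases in granules, was at 134, 185 and 110.2 CPM against 34.6, 93.2 and 79.6 CPM. It did not overlap, with a log2 fold change of 1.05 ± 0.37 (edgeR adjusted p 0.653, DESeq2 adjusted p 0.232). Nkg7, a membrane protein of cytotoxic granules, was at 279.7, 341 and 217 CPM in the mutants against 146, 309.9 and 205 CPM in the WT, overlapping, with 0.34 ± 0.30. Markers of NK and T cells summed to 8.99 to 13.3 CPM in the mutants against 9.29 to 13.3 CPM in the WT. Ncr1 and Gzma, too low to be tested, had 0 counts in the mutant mice. In the WT mice they had only 2, 2 and 8 counts (Ncr1) and 9, 14 and 8 (Gzma).

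The order by mean FPKM, which is per gene length, differed between the groups. In WT mice it ran Mpo 789 ± 321, Srgn 555 ± 155, Calr 366 ± 57.8, Nkg7 277 ± 96.1, Prtn3 237 ± 104 and Elane 155 ± 89.4. Ctsg (113 ± 79.2), Cst7 (71.5 ± 30.4), Ms4a3 (18.1 ± 11.9) and Hp (8.31 ± 2.73) followed. Among neighbours in that order the ranges did not overlap only for Srgn against Calr and Cst7 against Ms4a3. In mutant mice Mpo led at 2181 ± 311, followed by Elane (925 ± 406), Prtn3 (819 ± 458), Srgn (810 ± 323) and Ctsg (720 ± 495). Calr was then at 524 ± 82.3, Nkg7 at 331 ± 53.0, Ms4a3 at 203 ± 140, Cst7 at 140 ± 27.5 and Hp at 61.8 ± 20.6. Within single mutant mice, Calr lay below Ctsg only in mutant mouse 2. There the ranges did not overlap for Mpo against Elane, Calr against Nkg7 and Cst7 against Hp.

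**Figure D3:**
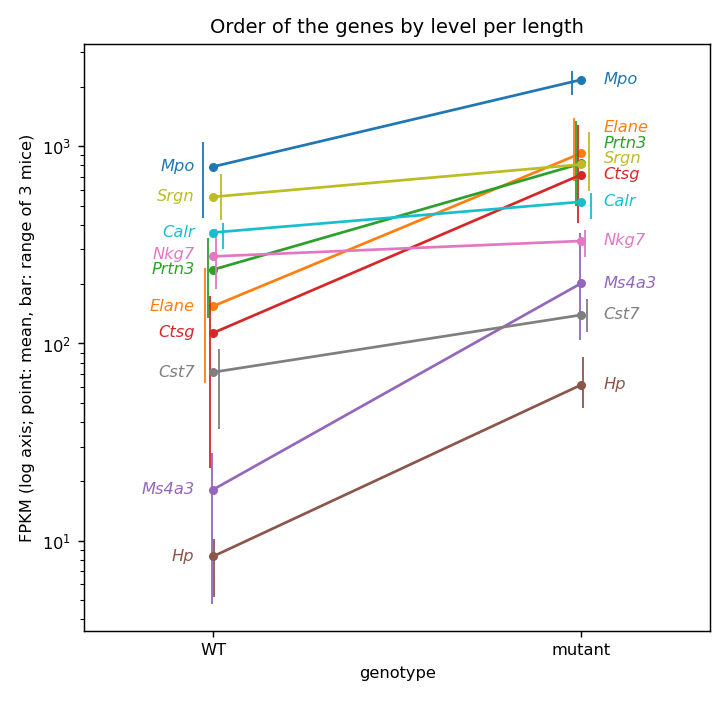
Mean FPKM of the 10 genes in WT and mutant mice (y axis, log scale), with points for means and vertical bars for the range of 3 mice. Elane, Prtn3 and Ctsg lie below Srgn in WT mice, and Elane and Prtn3 lie above it in mutant mice within overlapping ranges.

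Other contents of the primary granule were mixed, and edgeR's adjusted test called 0 genes in each related list. At an unadjusted p under 0.05, 4 of 9 tested (Bpi was not) were higher and 1 lower, against 3.43% and 3.13% of all genes. The median was 0.44, or 0.24 without mutant mouse 2, and DESeq2 called 2 higher, against 0.799% of all genes. Man2b1, a lysosomal mannosidase, was at 445 ± 22.5 CPM in the mutants against 259 ± 48.9 CPM in the WT (0.78 ± 0.20, DESeq2 adjusted p 0.0228). Cd68, a lysosomal membrane protein, was at 62.2 ± 28.9 against 26.4 ± 1.90 CPM (1.24 ± 0.33, DESeq2 adjusted p 0.0452). Prss57, the fourth neutrophil serine protease, was at 108 ± 37.1 against 51.6 ± 17.2 CPM, and Lyz2, lysozyme, at 250.2 ± 29.2 against 354 ± 37.7 CPM (-0.50 ± 0.18). The median of 9 granule sorting and congenital neutropenia genes was 0.09. At an unadjusted p under 0.05, 1 was higher, against 3.43% of all genes. It was Rab27a, a GTPase of granule release, at 105 ± 7.76 against 72.2 ± 13.4 CPM.

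Of 10 granulocyte and monocyte transcription factors, 6 had an unadjusted p under 0.05, each of them higher, all 10 were positive, and the median was 1.04. DESeq2 called 3. Irf8, one of the 6, was highest in mutant mouse 1, at 536, 188 and 266 CPM in the mutants against 92.4, 144 and 164 CPM in the WT. DESeq2 did not call Irf8 (adjusted p 0.0726). Cebpa, which starts the granulocyte programme, was at 45.9 ± 5.42 CPM in the mutants against 19.1 ± 0.68 CPM in the WT (1.26 ± 0.20, DESeq2 adjusted p 9.37e-06). Cebpd was at 40.3 ± 10.1 against 12.7 ± 4.0 CPM (DESeq2 adjusted p 0.000602), and Cebpe, the factor of the secondary granules, at 10.8 ± 5.2 against 1.79 ± 1.07 CPM (2.60 ± 0.57, DESeq2 adjusted p 0.00140). Cebpb was at 132 ± 20.6 against 69.8 ± 17.4 CPM, with a DESeq2 adjusted p of 0.0524. Spi1, which encodes PU.1 and was named after its values were seen, had 0.49 ± 0.22. Runx1 and Myb, the other regulators named above, had 0.11 ± 0.24 and 0.11 ± 0.22, both with overlapping groups.

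The list for secondary and tertiary granules, made later, gave 3 of 13 higher at an unadjusted p under 0.05, against 3.43% of all genes. Its median was 0.26, or 2.13 without WT mouse 1. Fcnb, a ficolin, stood at 9.54 ± 2.53 against 2.44 ± 0.62 CPM (1.97 ± 0.41, DESeq2 adjusted p 0.00100). S100a8, a calprotectin subunit placed in this list, was at 51.1 ± 28.5 against 13.3 ± 9.43 CPM and was not called by DESeq2. Lcn2, also among the 3, had 2.72 ± 1.14 with overlapping groups and was not called by DESeq2. Of the 13 genes, 7 had a positive log2 fold change, against 50.3% of all genes. Ltf and Ngp were among those with a negative one, at -1.46 ± 1.38 and -1.61 ± 1.11, with overlapping groups. Both were highest in WT mouse 1, at 34.1 CPM for Ltf and 58.3 CPM for Ngp.

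**Figure D4:**
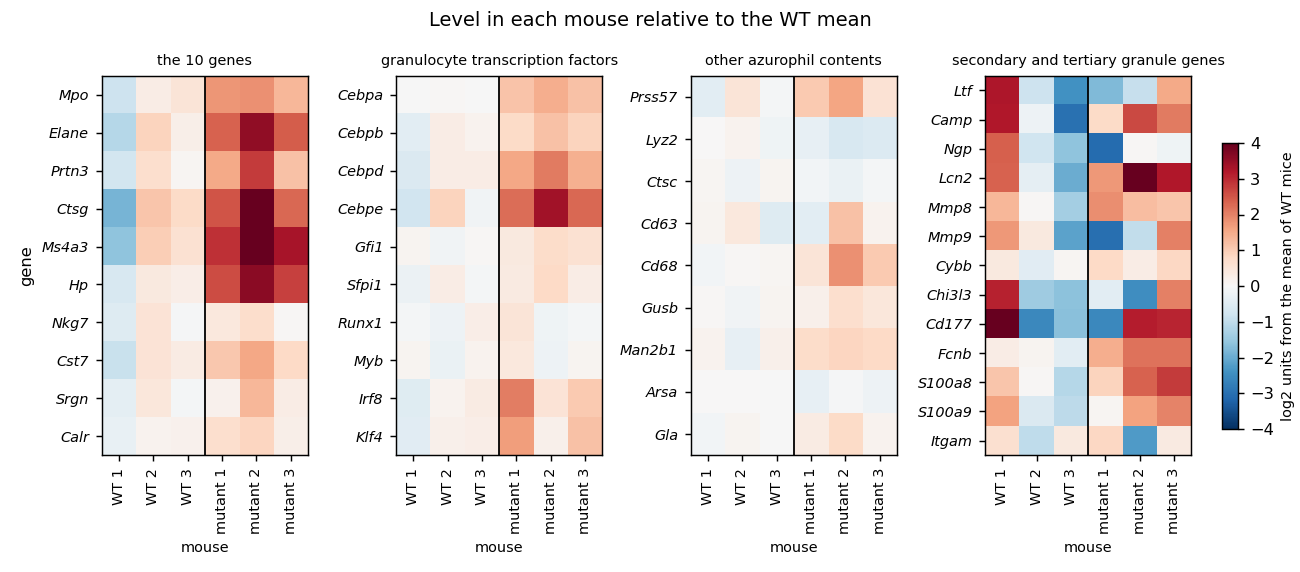
Log2 deviation of each library from the WT mean (colour, log2 units, end colours beyond 4 either way) for the 10 genes and 3 related lists (rows) in the 6 mice (columns). The 10 genes are highest in mutant mouse 2, and WT mouse 1 is lowest for each.

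Among 9087 other genes with a mean of at least 10 CPM, the 6 whose pattern over the 6 libraries was nearest to the mean of Mpo, Elane, Prtn3 and Ctsg were Ly6c2, Trem3, Ap3s1, Cpa3, Fcgr3 and Slpi. Likeness was the root mean square difference of log2 CPM, each gene centred on its own mean. Ly6c2, a monocyte surface antigen, was nearest at 0.27 log2 units, with 127 ± 74.4 CPM in the mutants against 20.4 ± 8.13 CPM in the WT. Cpa3, a mast cell protease, was at 0.38 (104.5 ± 40.1 against 27.0 ± 16.6 CPM), and Fcgr3, an Fc receptor, at 0.40. Of the 10 genes, Elane and Prtn3, both in that mean, were nearest at 0.27 and 0.33. Outside it Hp was nearest at 0.44, while Srgn, Calr and Nkg7 were farthest at 0.94, 0.99 and 1.04.

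Markers of other cells were read beside these values. Of all genes tested, 50.3% were positive, 6.89% lay wholly above WT and 7.67% wholly below. DESeq2 called 0.799% higher and 0.538% lower. All 5 monocyte markers were positive and 4 lay above WT without overlap, summing to 265 to 503 CPM in the mutants against 97.1 to 143 CPM in the WT. Of 6 mast cell and basophil markers 5 were positive, with sums of 88.2 to 288 against 14.4 to 66.1 CPM. Mature neutrophil markers summed to 47.8 to 137 against 20.8 to 157 CPM, with 5 of 8 positive. Of these DESeq2 called only Retnlg, which was lower, at 0.058 ± 0.056 against 3.19 ± 1.61 CPM (-5.62 ± 0.95, DESeq2 adjusted p 0.000160). Its counts in the mutants were 0, 1 and 2. Macrophage markers were lower in the mutants, at 5.10 to 34.0 against 44.6 to 76.9 CPM. Cd5l and Mertk had 0 counts in the mutants, and Mertk, not tested, had 16, 17 and 0 in the WT mice. B cell markers summed to 6.64 to 405 against 399 to 720 CPM, erythroid markers to 3.88 to 30.9 against 6.18 to 138 CPM, and osteoblast markers to 0.710 to 5.11 against 6.37 to 23.0 CPM. Alpl, the only osteoblast marker tested, had a log2 fold change of -2.64, below WT without overlap, and DESeq2 called it lower. Ibsp and Sp7 (osteoblast, not tested) had 0 counts in the mutants, and Hba-a1 (erythroid) had 0 in all libraries. Among the sorting markers, Ly6a (Sca-1) was at 74.4 ± 7.87 CPM in the mutants against 155 ± 6.75 CPM in the WT (-1.06 ± 0.18, DESeq2 adjusted p 1.30e-05), and Kit at 520.2 ± 192 against 681.5 ± 341 CPM. Of the 9 LSK markers 1 was positive and 2 lay below WT without overlap, with a median log2 fold change of -0.45. These 2 were Ly6a and Procr (-0.63 ± 0.25, not called by DESeq2). The 9 summed to 2766 to 3472 against 2703 to 4401 CPM. The part of any of these cells in the levels of the 10 genes was not tested.

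The values rested in part on single libraries. Without mutant mouse 2 the log2 fold changes were 1.45 for Mpo, 2.2 for Elane, 1.25 for Prtn3, 1.95 for Ctsg, 2.76 for Ms4a3 and 2.61 for Hp, and those of Nkg7 and Srgn were 0.17 and 0.19. With each mouse left out in turn, 8 of the 10 genes lay above WT without overlap, or 10 without WT mouse 2, against 9% to 16.9% of all genes. With sex as a covariate, a fit that rests on mutant mouse 3 alone for the genotype among females, the values were 1.21 for Mpo, 2.20 for Elane, 1.07 for Prtn3, 1.84 for Ctsg, 2.94 for Ms4a3 and 2.66 for Hp. The other 4 came to 0.67 for Cst7, 0.24 for Srgn, 0.23 for Calr and -0.023 for Nkg7.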

How the data were processed

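RNA-seq of LSK cells was deposited for 3 bcat(ex3)osb and 3 WT mice, with AllPrep extraction and TruSeq stranded total RNA libraries, per the labels. The submitters' processing notes name the build mm10 and the tools STAR 2.5.2b, featureCounts 1.5.0-p3 and bcl2fastq 2.17, without their roles. How strand and multi-mapped reads were treated is not given in the sources used here. Raw counts by gene, and FPKM with gene length, are as the authors deposited them.

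The test was edgeR 4.0.16 under R 4.3.3 (filterByExpr, minimum count 10, total 15, TMM, two-sided quasi-likelihood F test, Benjamini-Hochberg over 12653 of 23420 genes, threshold 0.05). DESeq2 1.42.0, limma 3.58.1, other scalings and filters, a length correction, sex as a covariate, the mouse number as a block and leaving out each mouse were alternatives. Log2 CPM used a prior count of 1, and log2 of the deposited FPKM a pseudocount of 1 or 0.1. Intervals cover counting error only. The procedure was tested on simulated data. A planned comparison of protein sequences was not run.

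The 10 genes and the related lists were chosen with earlier results of these data known. Named genes were these 10, up to 4 per list with the smallest unadjusted p, Kit, Ly6a, Ctnnb1, genomic neighbours and the 6 genes most alike. Ctsc, Spi1, Irf8, Runx1, Myb and Ltf fall outside this rule. So do the genes named for 0 counts (Ncr1, Gzma, Mertk, Ibsp, Sp7, Hba-a1) or for not being tested (Bpi). All of these were chosen after their values were seen. Ctnnb1 was at 302.5 ± 33.5 CPM in the mutants against 384 ± 109 CPM in the WT. Coordinates are 1-based, from RefSeq on GRCm38.p6.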

Additional observations from a re-analysis of the deposited data

How the results depend on the processing

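Directions of the 10 genes held under every alternative except Nkg7 with sex as a covariate, at -0.023. The counts of calls did not hold. DESeq2 called 101 genes higher and 68 lower over all, and 6 of the 10 genes, where edgeR and limma-voom called 0. Removing a trend with gene length gave 1 gene higher, Hp (edgeR adjusted p 0.0412). The 10 genes, at 813 to 2546 bases, are all shorter than the median tested gene, at 2810 bases. In that fit the log2 fold changes and their standard errors were lower for all 10. The values were 1.54 for Mpo, 1.69 for Prtn3, 0.44 for Srgn and 0.19 for Nkg7. Leaving out each mouse gave 0 to 4 genes higher and 0 to 13 lower over all, with 13 lower without mutant mouse 1 and 4 higher without mutant mouse 3, and 0 of the 10 genes in each. List medians ran from 0.24 to 0.55 for other primary granule contents, 0.16 to 0.86 for the protease inhibitors, -0.16 to 0.14 for the chaperones, -0.019 to 0.14 for the haem enzymes, -0.030 to 0.17 for granule sorting, 0.77 to 1.17 for the transcription factors and -0.20 to 2.13 for the secondary and tertiary granule genes. Of the 10 genes, 6 were higher at an unadjusted p under 0.05 without mutant mouse 2 (393 of all 13013 genes tested), 10 without WT mouse 2 (509 of 12986), and 4 in the fit with sex (194 of 12653).

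With the mouse number as a replicate block, edgeR called 5 genes higher, 3 of them among the 10 (Elane and Ms4a3, adjusted p 0.0296, and Hp, 0.0192). Deviations of same-numbered mice correlated across genes at 0.11, 0.344 and 0.0567. Mutant mice 1 and 3 correlated more with another number, at 0.131 and 0.279. With 3 mice a group, these values cannot tell whether the numbers pair the mice. The lowest count behind any of the 10 genes was 94. Shared 50-base words with other genes were found for Mpo (0.228%) and Calr (0.343%).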

Other observations

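Other letter patterns were counted in the same promoter windows, on both strands. The C/EBP pattern TTNNGNAA was in 40.7% of all promoters. It occurred in Ms4a3 (2 matches), Cst7 (2) and 1 of the Srgn promoters (5), and Mpo, Elane, Prtn3, Ctsg, Nkg7 and Calr had 0. The MYB pattern AACNG was in 80.3% of promoters and in every window of the 9 genes except that of Ms4a3. The RUNX pattern TGNGGT was in 45.8%, with 2 matches each in Ctsg, Nkg7, Cst7, Calr and 1 Srgn promoter. Each pattern is short, and a match or its lack says nothing of the factor.

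Genes that flank the 10 were mostly at low levels or had overlapping groups. Lpo, a peroxidase gene next to Mpo, had 0 to 0.222 CPM. Tspoap1, on the other side of Mpo, had a log2 fold change of 0.84 ± 0.38 with overlapping groups. Apmap, next to Cst7, was the flanking gene outside the 10 that lay above WT in every mutant, with 0.36 ± 0.17. Vps26a next to Srgn had -0.08 ± 0.21, and Farsa beside Calr had 0.22 ± 0.20.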
